A study of Mus musculus with 18 samples.

Results

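Cholinergic neurons of the mouse spinal cord were profiled through the mRNA on their ribosomes, against controls in which no ribosome carried the tag used for the pull-down. The 9 libraries described here are those with normal Gars (P278KY+/+ in the labels), out of 18 in the series. In 4 of them (Cre WT) the genotype was Rpl+/-;Chat+/-;P278KY+/+, in which Chat+/- stands for 1 copy of Cre recombinase at Chat. The other 5 (NoCre WT) were Rpl+/-;Chat+/+;P278KY+/+ and served as negative controls. Rpl+/- is the allele of Rpl22, a protein of the large ribosomal subunit, that gains a haemagglutinin (HA) tag wherever Cre is active. Every mouse of both groups therefore carried the allele, and only the Cre WT mice could express the tag. All mice were 8 weeks old, on the mixed background B6;CASTxB6.129, and the tissue was spinal cord. Each library is 1 mouse, and the numbers 1 to 4 and 1 to 5 follow the order of submission.

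In the spinal cord, acetylcholine is made by motor neurons of the ventral horn, which drive skeletal muscle, by visceral motor neurons of the intermediate column and by scattered interneurons. The alpha motor neurons innervate the contracting muscle fibres, and the gamma motor neurons innervate the fibres inside muscle spindles. Cre at Chat marks any cell that has used the Chat gene, so the pull-down does not separate these classes. In the controls the HA antibody and beads see no tag, so what is recovered there is unspecific background from the cord.

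Total counts per library were 14659488 to 24028649 in Cre WT and 8177758 to 11480402 in NoCre WT. Reads on nuclear protein-coding genes made up 63.4% to 86.8% of the counts in Cre WT and 21.1% to 52.9% in NoCre WT, with the lowest values in NoCre WT 4 (21.1%) and NoCre WT 5 (32.5%). The 2 mitochondrial ribosomal RNAs took 1.36% to 3.36% in Cre WT and 31.8% to 53.8% in NoCre WT. A lincRNA entry, Gm26924, took 9.37% to 30.05% in Cre WT and 5.03% to 16.1% in NoCre WT, and RefSeq places an 18S ribosomal RNA-related pseudogene, Rn18s-rs5, over 1245 of its bases on the same build. Wilson 95% intervals of all these shares reached at most 0.0342 percentage points to either side and cover counting error only. The library descriptions fall into 2 index sets, since index sequences and sample numbers start again after the first 10 libraries. Set 1 holds Cre WT 1 and 2 with NoCre WT 1 and 2, and set 2 holds Cre WT 3 and 4 with NoCre WT 3, 4 and 5. All 4 mice of set 1 were male and all 5 of set 2 female by Xist and Y-linked counts, so index set and sex cannot be told apart in these groups.

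The comparison asks which transcripts the tagged ribosomes of cholinergic neurons carry above background. Of 17133 genes tested, 10229 (59.7%) differed at an adjusted p under 0.05 (edgeR quasi-likelihood test, Benjamini-Hochberg over all genes). 4877 (28.5%) were higher in Cre WT and 5352 (31.2%) were lower. The rises were smaller than the falls: 187 genes were called at least 8-fold higher and 1667 at least 8-fold lower. Among nuclear protein-coding genes the balance was the other way, with 4734 of 14773 higher and 3900 lower, while long non-coding RNAs were higher for 32 and lower for 878 of 1339. The 2 groups did not overlap for 7392 genes (43.1%), of which 3849 (22.5%) were higher and 3543 (20.7%) lower in every Cre WT library. With so many genes changed, the zero point depends on the scaling: 47.7% of the calls were rises under the TMM scaling used here, 40.7% when the scaling was taken from nuclear protein-coding genes alone, and 59.1% when libraries were scaled by their totals alone. The median of all genes was -0.12 on the log2 scale under TMM, 0.20 with totals alone and -0.30 with protein-coding scaling. A log2 fold change below is Cre WT over NoCre WT, CPM is a gene's count after TMM scaling to a common library size (not corrected for gene length), and ± is the SD over 4 Cre WT or 5 NoCre WT libraries. The comparison sets a pull-down against its background, so a fall shows neither fewer cells of a type nor less RNA per cell.

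**Figure D1:**
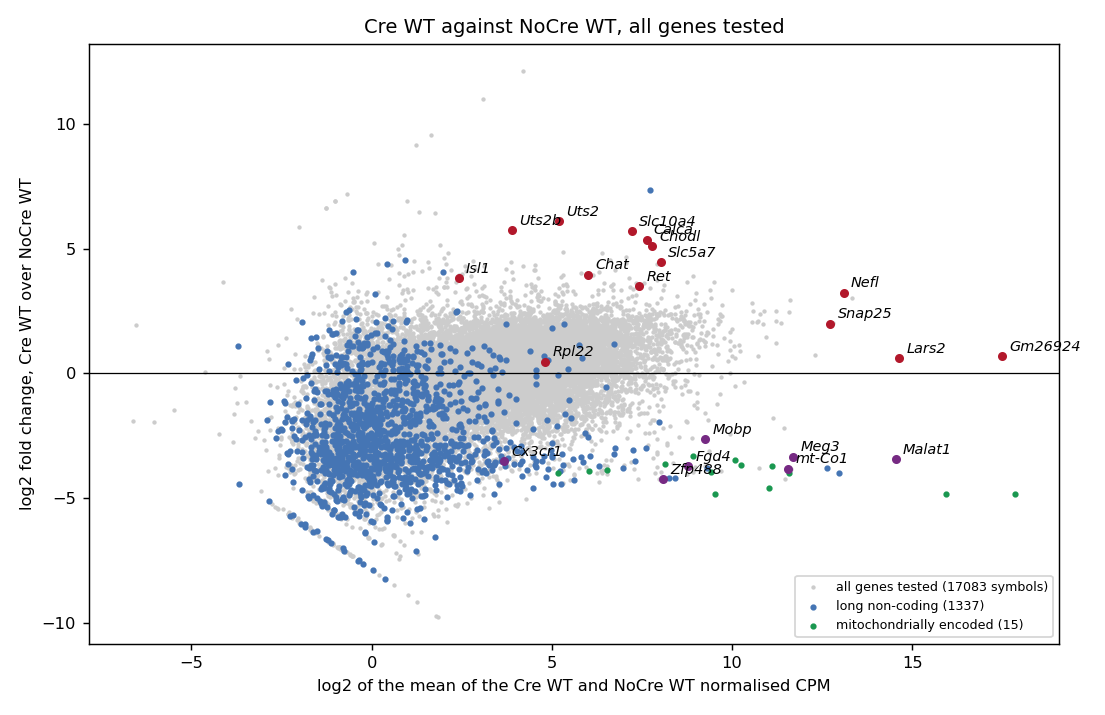
Log2 fold change of Cre WT over NoCre WT (vertical) against the log2 of the mean of the group means in CPM (horizontal) for every gene tested, with long non-coding and mitochondrially encoded genes coloured and selected genes named. Motor neuron genes such as Slc10a4 (5.71) lie at the top, all 15 mitochondrially encoded genes lie below 0, and the long non-coding genes lie mostly below 0.

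The 4 genes given as markers of these cells were higher in every Cre WT library than in any control. Slc5a7, the transporter that takes choline back into the nerve ending, stood at 571, 338, 603 and 490.3 CPM in Cre WT 1 to 4 and at 25.6, 29.3, 25.1, 17.7 and 15.8 CPM in NoCre WT 1 to 5 (log2 fold change 4.46, SE 0.25, adjusted p = 2.99e-11). Slc10a4, a transporter-like protein of cholinergic vesicles, stood at 363, 410.2, 194 and 210.5 against 8.12, 4.46, 5.27, 5.58 and 4.57 CPM (log2 fold change 5.71, adjusted p = 8.84e-12). Chodl, a lectin-like membrane protein of fast motor neurons, stood at 599, 570.0, 293 and 248 against 15.9, 13.6, 11.4, 8.17 and 12.8 CPM (log2 fold change 5.10, adjusted p = 7.53e-11). Chat itself, the enzyme that makes acetylcholine, was at 148, 169, 80.9 and 87.6 against 7.86, 6.08, 5.87, 6.77 and 12.9 CPM (log2 fold change 3.95, adjusted p = 3.17e-10). The Cre WT mice have 1 Chat copy with Cre, and whether that affects the level of Chat was not tested. Chodl, Slc10a4 and Chat were about 2 times higher in the Cre WT libraries of index set 1 than in those of set 2, and Slc5a7 was not. Rpl22, the tagged gene, was at 32.8 ± 9.76 CPM in Cre WT and 23.6 ± 4.68 in NoCre WT, which did not pass the test (log2 fold change 0.47, adjusted p = 0.0676). A total over Rpl22 reads does not show the tag, because the untagged and tagged forms were counted together.

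**Figure D2:**
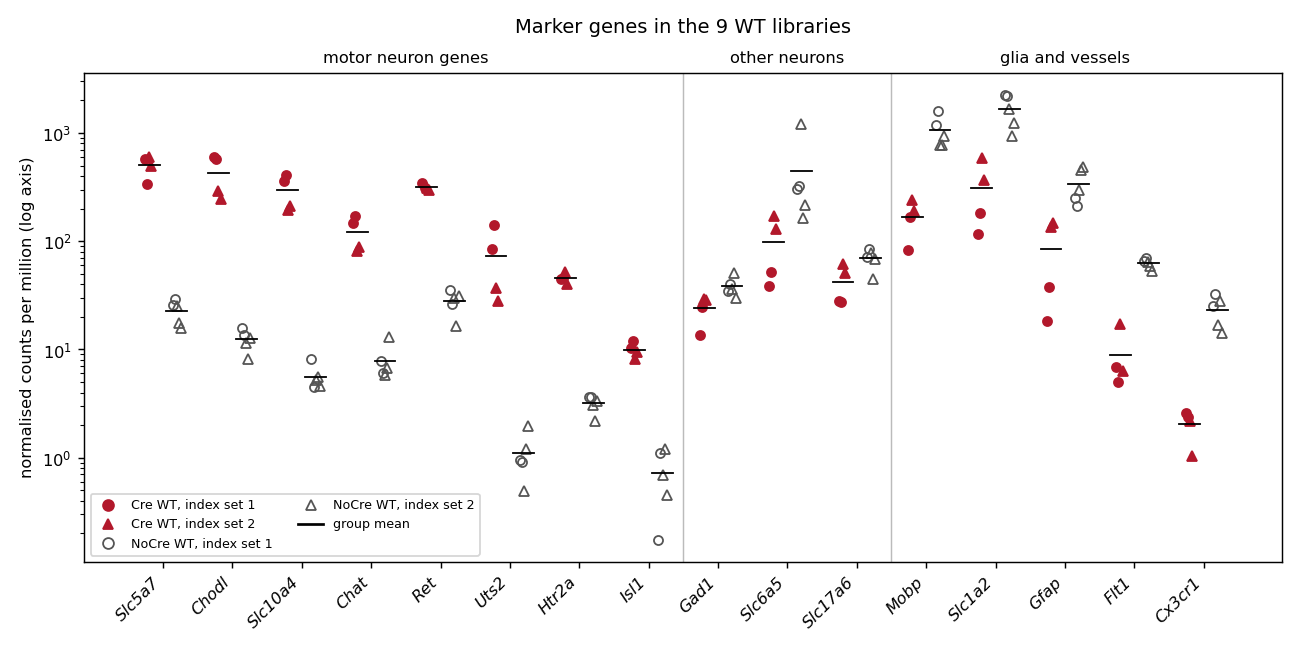
Normalised CPM (log axis) of 16 genes in each of the 9 WT libraries, Cre WT filled and NoCre WT open, circles for index set 1, triangles for index set 2 and a bar at each group mean. The 8 motor neuron genes on the left are higher in all 4 Cre WT libraries than in all 5 controls, and the glial genes Mobp, Slc1a2 and Gfap lie lower in Cre WT of set 1 than in Cre WT of set 2.

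Of 8 genes for making, moving and breaking down acetylcholine, 6 were higher and 1 was lower (median log2 fold change 3.14, against -0.12 for all genes tested). Among all genes, 28.5% were higher and 31.2% lower. Acly, which supplies acetyl-CoA, rose from 121 ± 29.9 to 1217 ± 381 CPM, higher by 3.33 on the log2 scale (adjusted p = 1.49e-10). The lower member was Bche, the plasma-type cholinesterase, with a log2 fold change of -1.73 (adjusted p = 3.44e-04). Genes of alpha and fast motor neurons moved the same way as the synthesis genes: 9 of 11 were higher and none lower, with a median of 3.34. Spp1, the secreted phosphoprotein osteopontin, rose from 43.7 ± 5.77 to 508 ± 169 CPM, and the kinase gene Stk32a from 14.1 ± 2.83 to 142 ± 19.6 CPM. Of 8 gamma motor neuron genes, 6 were higher and 1 lower with a smaller median of 1.37. The lower one was Pard3b, which was below every control in all Cre WT libraries. Gfra1, the receptor subunit for the trophic factor GDNF, was at 113 ± 17.7 against 20.7 ± 4.34 CPM, and 2 others of the list were at a few CPM: Htr1d, a serotonin receptor, was at 4.95 ± 0.224 against 1.31 ± 0.423 CPM and Gpr149, an orphan receptor, at 6.80 ± 2.29 against 2.40 ± 0.780 CPM. The list for visceral motor neurons and cholinergic interneurons went the other way, with 2 of 8 higher and 5 lower (median -1.09). The higher members included Nos1, the neuronal nitric oxide synthase, at 59.8 ± 7.42 against 38.1 ± 24.2 CPM. The call of Nos1 (adjusted p = 0.0409) was lost when Cre WT 1, 3 or 4 or NoCre WT 1, 2, 4 or 5 was left out. The lower members included Zeb2, at 48.8 ± 20.9 against 239.7 ± 69.0 CPM, a transcription factor that glia also use.

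Neuropeptide genes held several of the largest rises. Of 30 peptide and granule genes tested, 16 were higher and 5 lower, with a median of 1.13, against 28.5% higher and 31.2% lower of all genes. Uts2, which encodes the vasoactive peptide urotensin 2, was at 85.0, 140.4, 37.0 and 28.1 CPM in Cre WT 1 to 4 and at 0.961, 0.911, 0.497, 1.20 and 1.98 CPM in NoCre WT 1 to 5 (log2 fold change 6.09, SE 0.57, adjusted p = 7.33e-08). Its relative Uts2b was at 37.8, 38.2, 19.5 and 21.8 against 0.611, 0.709, 0.298, 0.996 and 0.152 CPM (log2 fold change 5.74, adjusted p = 2.36e-09). Calca and Calcb encode the calcitonin gene-related peptides, which motor neurons release at the muscle. Calca was at 528, 560.5, 218 and 238 against 10.0, 9.52, 8.75, 10.4 and 8.52 CPM (log2 fold change 5.35), and Calcb rose from 2.76 ± 1.92 to 76.6 ± 35.5 CPM (log2 fold change 4.86). Calca and Calcb are also peptides of sensory neurons, whose axons enter the cord. Of 6 genes of dorsal root ganglion neurons tested, edgeR called none (0 at an unadjusted p under 0.05, 0 by DESeq2 and 0 by limma voom), all at a mean under 3 CPM in both groups, such as Avil at 0.763 ± 0.796 CPM in Cre WT and 1.76 ± 2.51 in NoCre WT. In P278KY mice Avil was higher (log2 fold change 4.15, adjusted p = 0.00111). Of 4 more that were too low to test, Prdm12 had 62 counts in Cre WT and 12 in NoCre WT, and Nppb 29 and 1. The part of sensory RNA in the levels of Calca and Calcb was not tested. Cartpt rose from 2.51 ± 1.15 to 44.2 ± 34.8 CPM and the neurotensin gene Nts from 6.05 ± 2.56 to 45.1 ± 14.4 CPM. The 5 lower genes of the list included Tac1, for substance P (log2 fold change -1.80), and Tac2, for neurokinin B (-1.91). Pdyn, for dynorphin (-1.47), and Npy, for neuropeptide Y (-2.25), were also among them. Per transcript length the highest peptide level in Cre WT was that of Calca, at 581 ± 72.3 TPM (the authors' level per transcript length), ahead of Cck, for cholecystokinin, at 336 ± 49.5 TPM, the granule gene Chgb at 262 ± 64.2 TPM and Uts2 at 224 ± 81.8 TPM. Cck and Chgb are named after their values were seen, and the SDs of neighbours in this order overlap.

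The stretches before the starts of 4 of these peptide genes are shown because all 4 were among the 20 largest rises. Each is the 250 bases before the RefSeq start on GRCm38.p6, 5′ to 3′ on the gene's own strand. Capitals mark 2 of the 3 motifs searched on both strands, the TATA box TATAAA, whose reverse TTTATA may overlap it, and the cAMP response element TGACGTCA. Calca holds none of them. Uts2 lies on the plus strand at chr4:150996847-150997096, Uts2b on the minus strand at chr16:27370240-27370489, Calca on the minus strand at chr7:114636358-114636607 and Cartpt on the minus strand at chr13:99900684-99900933.
Uts2: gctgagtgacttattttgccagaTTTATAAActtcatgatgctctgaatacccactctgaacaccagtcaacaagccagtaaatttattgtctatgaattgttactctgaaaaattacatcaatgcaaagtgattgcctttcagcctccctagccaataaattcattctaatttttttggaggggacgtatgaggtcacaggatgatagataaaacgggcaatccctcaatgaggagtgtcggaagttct
Uts2b: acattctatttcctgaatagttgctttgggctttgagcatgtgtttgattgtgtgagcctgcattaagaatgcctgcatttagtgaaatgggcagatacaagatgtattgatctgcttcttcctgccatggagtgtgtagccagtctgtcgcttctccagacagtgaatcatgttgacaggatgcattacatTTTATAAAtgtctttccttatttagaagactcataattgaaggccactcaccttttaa
Calca: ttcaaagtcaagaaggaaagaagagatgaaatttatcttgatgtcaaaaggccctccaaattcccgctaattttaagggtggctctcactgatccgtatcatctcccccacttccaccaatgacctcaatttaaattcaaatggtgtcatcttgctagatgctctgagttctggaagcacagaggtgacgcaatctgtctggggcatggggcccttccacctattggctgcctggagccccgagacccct
Cartpt: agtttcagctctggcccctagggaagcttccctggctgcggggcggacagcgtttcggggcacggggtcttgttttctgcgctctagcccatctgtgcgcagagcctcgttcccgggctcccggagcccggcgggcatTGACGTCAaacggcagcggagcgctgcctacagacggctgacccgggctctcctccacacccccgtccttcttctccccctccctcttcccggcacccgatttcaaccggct
RefSeq promoters were matched for 15 of the 20 largest rises and 16 of the 20 largest falls named by rule. TATAAA stood in 4 of 15 rises (26.7%), 5 of 16 falls (31.2%) and 14.3% of all 27025 genes with a promoter. TGACGTCA stood in 1 of 15 rises, Cartpt, in 0 of 16 falls and in 1.77% of all genes. TAATTA, the core bound by homeodomain factors, stood in 0 of 15 rises, 1 of 16 falls and 5.65% of all genes. A match is only a run of letters, and windows further from the start were not searched.

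The other large rises were of several kinds. Among the 20 largest by rule were genes for calcium-binding or membrane-linked proteins (S100a10, at 148 ± 71.9 against 8.96 ± 3.41 CPM), for the sugar-binding lectin Lgals1 (163 ± 99.1 against 5.86 ± 2.83 CPM) and for Fxyd7, a modulator of the sodium pump (187 ± 93.1 against 8.12 ± 4.32 CPM). Vdr, the nuclear receptor for vitamin D, was at 31.1, 29.7, 25.8 and 25.8 CPM in Cre WT and at 1.75, 1.42, 0.497, 1.40 and 1.22 CPM in NoCre WT (log2 fold change 4.48), and its Cre WT libraries lay close together in both index sets. Arhgap36, a regulator of protein kinase A and hedgehog signalling, rose from 11.7 ± 3.11 to 254 ± 62.3 CPM, and Vipr2, a receptor for vasoactive intestinal peptide, from 1.74 ± 1.35 to 35.2 ± 4.97 CPM. Gna14, a G protein subunit, rose from 2.32 ± 1.32 to 42.8 ± 4.75 CPM, and Tpd52l1 from 2.14 ± 0.673 to 43.9 ± 10.6 CPM. All 20 were also higher in the Cre libraries of P278KY mice, with log2 fold changes of 2.31 to 6.74.

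Of 21 transcription factors listed for motor neurons, 8 were higher and 7 lower, against 28.5% higher and 31.2% lower of all genes. Their median, -0.32, ran from -0.50 to 0.06 over the alternatives. Among the higher ones, Isl1 was at 10.4, 11.9, 8.20 and 9.43 CPM in Cre WT and 0.175, 1.11, 0.696, 1.20 and 0.457 in NoCre WT (log2 fold change 3.82, adjusted p = 6.65e-07), and Mnx1 at 15.2, 12.4, 7.13 and 8.22 against 0.611, 0.203, 0.696, 1.79 and 0.304 CPM (log2 fold change 3.99, adjusted p = 5.7e-07). Lhx4 rose from 3.01 ± 1.06 to 20.9 ± 5.38 CPM. Bcl6, a zinc finger repressor, rose from 27.3 ± 7.54 to 195 ± 22.7 CPM and had the highest level per transcript length of the 21 in Cre WT, at 82.1 ± 26.0 TPM (authors' values). The 7 lower members were Ebf1, Ebf2 and Ebf3, with log2 fold changes of -2.25, -1.76 and -1.73, Onecut2 (-2.30), Nkx6-2 (-1.64), Nkx6-1 (-1.07) and Foxp1 (-0.63), the last 3 known from motor neuron specification. The call of Nkx6-1 was lost without Cre WT 1 or 2 or NoCre WT 2, 3 or 4. Hox genes, which set position along the cord, were lower for 13 and higher for 2 of 32 (median -0.75), against 31.2% lower and 28.5% higher of all genes, and 17 were not called. The 2 higher were Hoxd9, from 8.44 ± 1.32 to 23.1 ± 9.54 CPM, and Hoxa7, at 58.5, 45.2, 50.2 and 66.0 CPM in Cre WT against 30.7, 34.2, 33.2, 23.3 and 13.8 in NoCre WT. The lower ones named by rule, Hoxd3, Hoxb4, Hoxc4 and Hoxb9, had log2 fold changes of -2.02, -1.65, -1.66 and -1.14.

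Of 26 receptors for trophic and guidance factors, 11 were higher and 8 lower (median 0.23), against 28.5% and 31.2% of all genes. Ret, the signalling receptor for GDNF-family factors, was at 348, 311, 309 and 296 CPM in Cre WT and 35.1, 26.4, 29.8, 16.3 and 31.4 in NoCre WT (log2 fold change 3.50, adjusted p = 7.53e-11). Lifr, which with its partners binds leukaemia inhibitory factor and ciliary neurotrophic factor, rose from 95.7 ± 22.7 to 254 ± 24.7 CPM, and the semaphorin receptor Nrp2 from 38.3 ± 11.9 to 102 ± 23.7 CPM. The 8 lower receptors included Fgfr2 (log2 fold change -1.83), Fgfr3 (-1.82), Kdr (-2.77) and the insulin receptor gene Insr (-1.01). Of 29 receptors for acetylcholine and monoamines, 11 were higher and 6 lower (median 0.51). Htr2a, the serotonin receptor 2A, was at 44.8, 45.4, 52.5 and 40.4 against 3.67, 3.65, 3.08, 2.19 and 3.35 CPM (log2 fold change 3.82, adjusted p = 3.52e-10). Chrm2, the muscarinic receptor M2, rose from 22.2 ± 6.90 to 87.3 ± 20.4 CPM, and Adra1d, an adrenergic receptor, from 0.711 ± 0.550 to 10.1 ± 3.36 CPM. Chrna4, a neuronal nicotinic subunit, fell from 35.1 ± 5.86 to 15.9 ± 7.24 CPM, and Chrna1, the nicotinic subunit of muscle, was near the detection floor in Cre WT (0.553 ± 0.217 against 4.10 ± 1.39 CPM).

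Of 25 glutamate receptor genes, 8 were higher and 6 lower, shares close to those of all genes (28.5% and 31.2%). Their median, -0.08, turned to 0.25 with scaling by totals alone, so the list has no direction that holds over scalings. Grin3b, an NMDA receptor subunit that lowers calcium entry, was at 37.7, 35.5, 18.5 and 22.1 CPM in Cre WT and 2.10, 0.405, 1.29, 1.40 and 5.33 in NoCre WT (log2 fold change 3.79, adjusted p = 2.29e-06), and the obligatory subunit Grin1 rose from 113 ± 17.8 to 285 ± 84.2 CPM. Grin2b fell from 164 ± 44.8 to 65.3 ± 17.1 CPM, the AMPA receptor subunit Gria1 from 58.4 ± 9.50 to 29.8 ± 4.83 CPM and the kainate receptor subunit Grik3 from 34.4 ± 9.55 to 5.98 ± 1.63 CPM. Of 20 genes of receptors for inhibitory transmitters, 8 were higher and 3 lower (median 0.49). Glra1, the adult glycine receptor subunit, rose from 109.5 ± 18.2 to 301 ± 73.6 CPM and its partner Glrb from 69.7 ± 14.8 to 309 ± 50.7 CPM. Gphn, for the scaffold gephyrin that anchors glycine and GABA-A receptors, rose with them (log2 fold change 1.12). The lower subunits were Gabra3, Gabrg3 and Gabra4, with log2 fold changes of -0.74, -1.07 and -1.15, and the call of Gabra4 was lost without Cre WT 1 or 2 or NoCre WT 1, 2 or 3.

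Of 45 potassium channel genes, 16 were higher and 12 lower (median 0.48), near the 28.5% and 31.2% of all genes. The leak channels Kcnk9 and Kcnk3, which help set the resting potential, were at 112, 96.0, 70.5 and 74.3 against 10.1, 8.20, 10.9, 6.18 and 8.83 CPM (log2 fold change 3.30, adjusted p = 1.67e-10) and at 59.3 ± 7.57 against 10.2 ± 5.16 CPM. The auxiliary subunits Kcnab1 and Kcnab2 rose by 2.51 and 2.02 on the log2 scale, and the inward rectifier Kcnj14 was among the 20 largest rises, from 8.36 ± 4.43 to 132 ± 28.9 CPM. The glial inward rectifiers Kcnj10 and Kcnj16 fell, by 2.54 and 1.86 on the log2 scale, and so did the neuronal channels Kcnq3 (-1.44), Kcna6 (-1.41) and Kcnh7 (-2.63). Of 31 sodium and calcium channel genes, 10 were higher and 6 lower, the higher share again near that of all genes. The calcium channel subunits Cacna2d3 and Cacnb1 rose by 2.34 and 2.07, and the sodium channel Scn1a by 1.02 on the log2 scale. Scn2a1, Scn3a and Cacna1b fell, with log2 fold changes of -1.09, -1.35 and -1.29. The median of that list, 0.13, ran from -0.05 to 0.43 over the scalings.

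In the lists of the axonal skeleton, transport and release, larger shares were higher than the 28.5% of all genes, and smaller shares lower than the 31.2%. All 4 called genes of 5 neuronal intermediate filaments were higher. Nefl, the light neurofilament chain, was at 19340, 18750, 13620 and 11850 CPM in Cre WT 1 to 4 and 1706, 1698, 1559, 1829 and 1695 CPM in NoCre WT 1 to 5 (log2 fold change 3.23, SE 0.17, adjusted p = 8.84e-12). Prph, for peripherin, rose by 4.36, Nefm by 3.03 and Nefh by 2.50 on the log2 scale. Of 25 tubulin and microtubule genes, 19 were higher and 1 lower (median 1.86). Stmn2, a regulator of microtubules in axon growth, was at 1654, 1476, 1222 and 1064 against 112, 109, 112, 113 and 94.4 CPM (log2 fold change 3.65), and the neuronal tubulin Tubb3 rose by 3.90. The exception was Stmn4, from 147 ± 63.7 to 72.7 ± 6.97 CPM. Of 30 kinesin, dynein and dynactin genes, 21 were higher and 5 lower (median 0.98). The kinesin light chains Klc1 and Klc2 rose by 2.40 and 2.37, and the dynein and dynactin subunits Dync1li1 and Dctn5 by 2.58 and 2.10 on the log2 scale. The 5 lower ones were kinesin motor genes, Kif13b (-2.53), Kif1c (-2.50), Kif13a (-1.63), Kif21b (-1.41) and Kif5b (-0.56), the last not called without Cre WT 2 or NoCre WT 2. Of 29 genes of synaptic vesicles and release, 19 were higher and 3 lower (median 1.18). Sncg, for gamma-synuclein, rose from 10.3 ± 3.90 to 257 ± 119 CPM, Vamp1 from 376 ± 37.0 to 2639 ± 899 CPM and Cplx1 from 308 ± 12.4 to 1333 ± 293 CPM. Cplx2, the other main complexin, was among the 3 lower, at 71.4 ± 25.9 against 153 ± 45.4 CPM. The others were the active zone scaffolds Bsn (-0.61) and Pclo (-0.60), and Pclo was not called without Cre WT 1 or 2 or NoCre WT 1, 3 or 5.

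Genes for energy supply and protein upkeep rose in larger shares than the 28.5% of all genes. The proteasome had 30 of 34 genes higher and 1 lower (median 1.81). The lower one was Psmb9, the interferon-induced subunit that replaces a standard one in immune cells, at 0.590 ± 0.688 against 3.19 ± 1.72 CPM. Of 35 cytosolic and endoplasmic reticulum chaperones, 30 were higher and none lower (median 1.45). The small heat shock proteins Hspb1 and Hspb8 rose most among those named by rule, from 11.7 ± 4.92 to 205 ± 103 and from 15.8 ± 4.41 to 191 ± 53.1 CPM. The tricarboxylic acid cycle had 22 of 25 higher and 2 lower (median 1.34), and glycolysis 15 of 23 higher and 3 lower (median 0.98). In the glycolysis list Eno2, the neuronal enolase, rose from 209 ± 32.5 to 886 ± 147 CPM, while the lower genes were Slc2a1, the glucose transporter of vessels and glia (-1.15), the monocarboxylate transporter Slc16a7 (-1.22) and the hexokinase Hk2 (-1.40). Slc16a7 was not called without Cre WT 2 or NoCre WT 3, nor Hk2 without Cre WT 1 or 4 or NoCre WT 1, 2, 3 or 4. In the cycle list the 2 lower genes were the isocitrate dehydrogenase Idh2 (-0.91) and Suclg2, of the GTP-forming succinate-CoA ligase (-1.57), while Sucla2, of the ATP-forming enzyme, rose by 1.95 on the log2 scale. Elongation factor genes also formed such a pair. Eef1a2, the form of adult neurons and muscle, was at 310.1, 388, 205 and 187 CPM in Cre WT and 40.5, 36.7, 72.2, 60.4 and 72.2 in NoCre WT (log2 fold change 2.27, adjusted p = 4.38e-07). Eef1a1, the form most other cells use, was at 153, 198, 167 and 215 against 288, 319, 272, 303 and 368 CPM (log2 fold change -0.76, adjusted p = 3.87e-04), the only fall called among 26 translation factors, of which 18 rose. With scaling by totals alone Eef1a1 kept its sign but was not called. In cholesterol synthesis 17 of 21 genes were higher and 1 was lower (median 1.04), Lss at -0.76, which was not called without Cre WT 2 or NoCre WT 1.

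In level per transcript length, the highest nuclear protein-coding genes in Cre WT were Snap25, for a release protein of nerve endings, at 11150 ± 3468 TPM, Lars2 at 9710.0 ± 3476 TPM, Nefm at 7418 ± 809 TPM, Calm2, for calmodulin, at 7143 ± 1768 TPM and Nefl at 6803 ± 1837 TPM (authors' values, SD, n = 4). Lars2, a mitochondrial leucyl-tRNA synthetase, stood apart from the others: its share of counts followed that of Gm26924 over the 9 libraries, at 3.72%, 4.53%, 1.38% and 2.06% in Cre WT 1 to 4 and at 0.633%, 0.735%, 0.726%, 2.365% and 1.99% in NoCre WT 1 to 5. It did not differ between the groups (0.433 adjusted p), and what the reads on Lars2 stem from was not tested. Of the 20 genes with the highest TPM in Cre WT, 19 were called higher, Lars2 being the exception, against 28.5% of all genes. These 20 were picked by their level in Cre WT itself, which favours rises, so the count is no separate result.

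Genes of motor neuron disease and inherited neuropathy were higher for 30 and lower for 10 of 45 (median 1.21), against 28.5% and 31.2% of all genes. Sod1 rose from 119 ± 33.2 to 656 ± 312 CPM, and Gars, the gene changed in the other mice of the series, from 34.1 ± 8.28 to 139 ± 29.3 CPM, higher by 2.03 on the log2 scale (adjusted p = 3.42e-08). The lower ones included Spg11 (-1.08), Nek1 (-0.83) and the motor adaptor Bicd2 (-0.69). Of 15 genes linked to axon injury, 7 were higher and none lower, with Ecel1 from 3.67 ± 1.48 to 42.3 ± 12.1 CPM and Jun from 19.7 ± 5.15 to 83.6 ± 15.6 CPM. Of 17 immediate early genes, 5 were higher and 4 lower, near the 28.5% and 31.2% of all genes. Fos was at 10.1 ± 3.54 against 2.50 ± 0.920 CPM and Nr4a2 at 0.794 ± 0.172 against 3.95 ± 2.93 CPM. In the class I antigen-presentation list, 3 of 13 were higher and 6 lower: H2-D1 was higher, at 92.4 ± 25.6 against 34.4 ± 5.37 CPM, as were the loading factor gene Tapbp (0.97) and H2-T22 (0.81), whereas H2-K1 was lower, at 12.4 ± 4.91 against 29.9 ± 8.84 CPM. H2-T22 was not called when any 1 Cre WT library or NoCre WT 1, 2 or 4 was left out. These class I genes are similar in sequence, so reads may be shared between them in the authors' counts. Of 15 histone genes, 8 were higher and 1 lower, H2afy (-0.80), which was not called without NoCre WT 5.

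**Figure D3:**
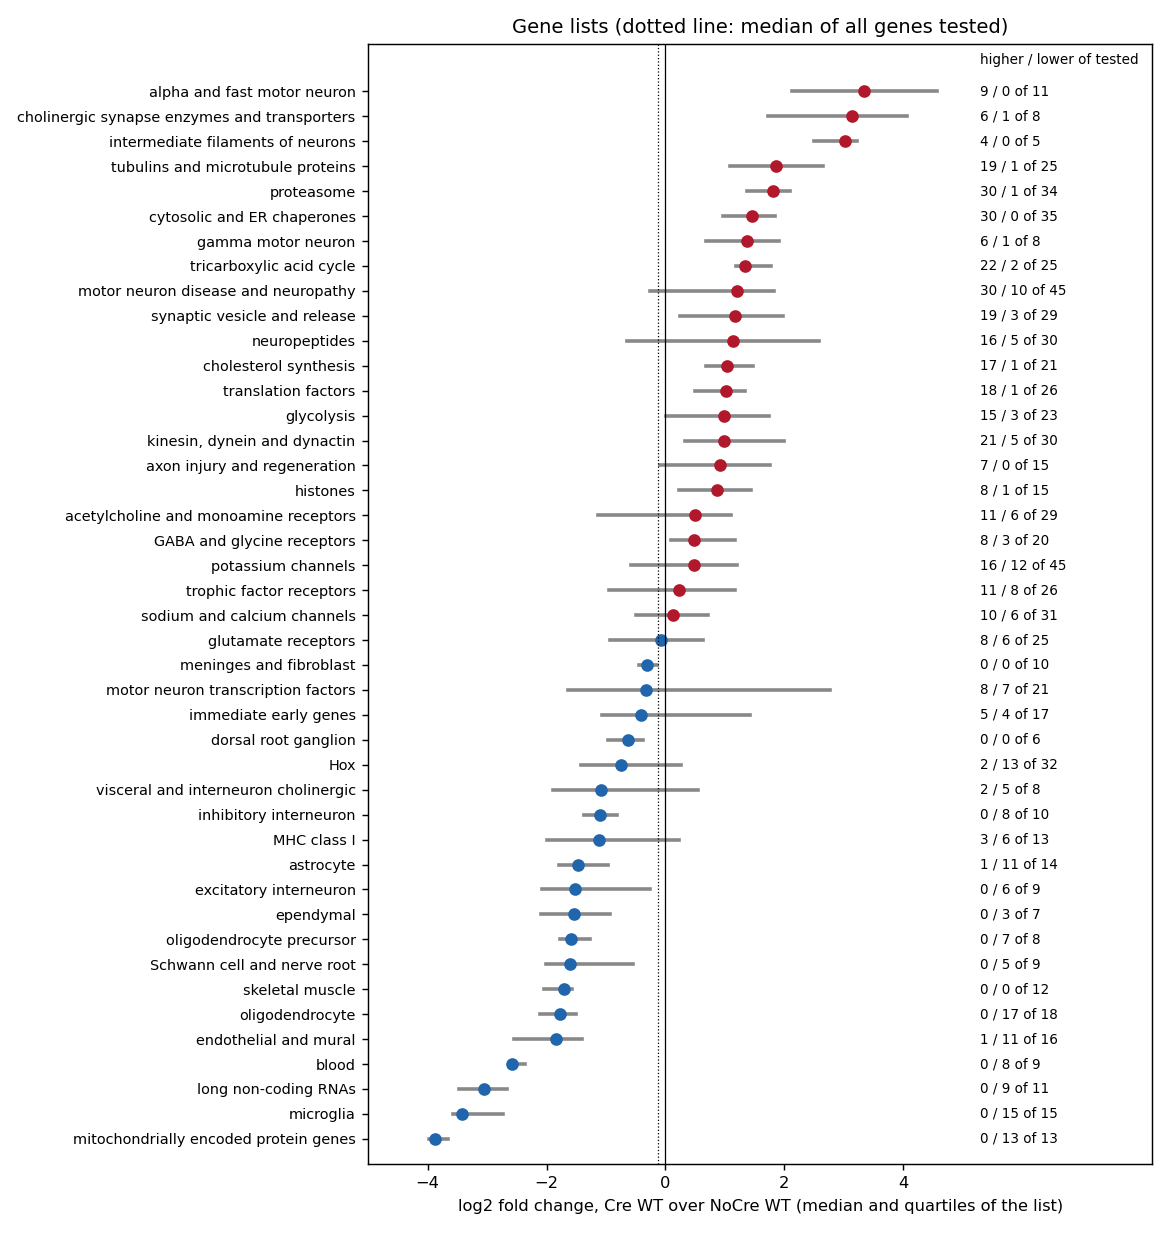
Median (dot) and quartiles (bar) of the log2 fold change of Cre WT over NoCre WT for 43 gene lists, with the genes called higher and lower of those tested at the right. Lists of alpha and fast motor neurons (3.34) and acetylcholine handling (3.14) have the highest medians, and the mitochondrially encoded protein genes (-3.88) and microglia (-3.42) the lowest.

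Genes of most other cell types were lower in Cre WT. All 15 microglial genes fell (median -3.42), against 31.2% of all genes tested. Cx3cr1, their fractalkine receptor, was at 2.62, 2.39, 2.19 and 1.03 CPM in Cre WT and 25.1, 32.5, 16.7, 28.3 and 14.2 in NoCre WT (log2 fold change -3.51, adjusted p = 6.01e-07). Of 16 endothelial and mural genes, 11 fell and 1 rose (median -1.85), of 18 oligodendrocyte genes 17 fell (-1.77), of 8 precursor genes 7 fell (-1.58), and of 14 astrocyte genes 11 fell and 1 rose (-1.47). Of 9 Schwann cell and nerve root genes 5 fell (-1.61), and of 7 ependymal genes 3 fell (-1.53). Mobp, a basic protein of oligodendrocyte myelin, was at 82.1, 166, 238 and 189 against 1194, 1601, 774, 771 and 942 CPM (log2 fold change -2.64, adjusted p = 1.25e-06). Slc1a2, the glutamate transporter of astrocytes, was at 117, 182, 584 and 364 against 2235, 2174, 1680.0, 937 and 1236 CPM (log2 fold change -2.40, adjusted p = 1.3e-04). Neither gene was near 0 in Cre WT, and in both the libraries Cre WT 3 and 4 stood above Cre WT 1 and 2. Summed over the 18 oligodendrocyte genes the level was 845.1 to 4710.0 CPM in Cre WT and 9463 to 14100 CPM in NoCre WT, and over the 14 astrocyte genes 1330.0 to 2320.0 against 3207 to 4092 CPM. No defining marker of these types was at 0 in the sum over Cre WT. The part of this remaining glial RNA in the levels of genes that neurons and glia share was not tested.

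The 2 exceptions among glial and vascular lists were higher in every Cre WT library. S100b, a calcium-binding protein of astrocytes, was at 647, 627, 421 and 426 CPM in Cre WT and 207, 256, 246, 345 and 303 in NoCre WT (log2 fold change 0.97, adjusted p = 4.04e-04). Itm2a, listed for vessels, was at 93.8, 99.2, 50.5 and 50.2 against 16.8, 13.9, 20.2, 23.9 and 16.3 CPM (log2 fold change 2.02, adjusted p = 4.27e-07). Their other list members fell or were not called, so these 2 genes moved against the other markers of their lists.

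Markers of other neurons were lower too. Of 10 genes of inhibitory interneurons 8 were lower (median -1.10), and of 9 of excitatory interneurons 6 were lower (median -1.52), with none higher. Among all genes, 31.2% were lower and 28.5% higher. Slc6a5, the glycine transporter of inhibitory neurons, was at 38.3, 51.6, 169 and 129.9 CPM in Cre WT and 303, 323, 1208, 164 and 216 in NoCre WT (log2 fold change -2.18, adjusted p = 0.00312), and NoCre WT 3 stood well above the other controls. Lmx1b, a transcription factor of dorsal horn neurons, fell from 7.44 ± 1.23 to 1.75 ± 0.555 CPM. Meningeal and muscle genes were not called: 0 of 10 and 0 of 12 passed the edgeR test, with medians of -0.31 and -1.70. At an unadjusted p under 0.05 there were 0 meningeal and 1 muscle gene, DESeq2 called 1 and 2, and limma voom 1 and 0. Within index set 1, 7 of the 10 meningeal genes were called lower (median -2.16), and within set 2 none was lower and 1 was higher (median 0.18). In P278KY mice all 10 meningeal genes were called lower, and so were 11 of the 12 muscle genes (median -4.78). The WT libraries varied widely, from 49.6 to 785.5 CPM summed over meningeal genes in Cre WT and 119.5 to 494.1 CPM in NoCre WT. Summed over muscle genes, NoCre WT 3 stood at 687.7 CPM, the other controls at 16.9 to 135.9 CPM and Cre WT at 27.2 to 147.6 CPM. Dcn, of meningeal fibroblasts, was at 12.02, 22.5, 52.8 and 152 against 16.1, 36.8, 42.0, 34.9 and 25.1 CPM, with Cre WT 3 and 4, the libraries of set 2, above every control. Of 9 blood genes 8 fell (median -2.59).

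RNA that ribosomes of the cytoplasm do not translate was lower as well. All 13 mitochondrially encoded protein genes fell (median -3.88), and the range of the sum was 1320.0 to 2848 CPM in Cre WT and 15650.0 to 43200.0 CPM in NoCre WT. Of 11 well-known long non-coding RNAs tested, 9 fell and none rose (median -3.06), against 31.2% lower of all genes. Rian and Mirg, of the Dlk1-Dio3 imprinted region, fell from 275 ± 126 to 32.9 ± 3.76 and from 28.3 ± 9.39 to 2.37 ± 1.25 CPM, and Miat from 192 ± 53.9 to 24.1 ± 11.9 CPM. The mostly nuclear Malat1, named here after its values were seen, was at 5173, 4277, 2510.0 and 4298 against 46790, 72300, 22860, 46280 and 31110 CPM. Of the 32 long non-coding genes that rose, the largest at 20 CPM or more was Gm17494 (log2 fold change 1.99), followed by Cct6a (1.97), which the annotation used here lists as a processed transcript although it encodes a chaperonin subunit.

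The largest falls of protein-coding genes were not markers of 1 cell type. Among the 20 named by rule, Zfp488, a zinc finger repressor of oligodendrocytes, was at 19.1, 34.4, 28.0 and 27.0 CPM in Cre WT and 414, 322, 449.9, 1020.0 and 366 in NoCre WT (log2 fold change -4.25, adjusted p = 1.85e-08). Fgd4, an exchange factor mutated in a demyelinating neuropathy, was at 57.2, 89.2, 46.3 and 58.8 against 824, 455, 629.9, 1550.0 and 648 CPM (log2 fold change -3.71). Receptor genes of the nose were also among them: the odorant receptor Olfr613 was at 7.44 ± 1.94 against 150.0 ± 116 CPM and the pheromone receptor Vmn1r58 at 5.80 ± 1.99 against 92.9 ± 55.3 CPM. Hsd3b2, of steroid synthesis, was at 10.1 ± 2.20 against 157 ± 84.7 CPM, Ces2b, a carboxylesterase, at 3.11 ± 0.916 against 54.5 ± 19.8 CPM, and Lpl, lipoprotein lipase, at 2.78 ± 0.599 against 44.1 ± 15.7 CPM. NoCre WT 4, the library with the smallest share of protein-coding reads, was the highest control for 17 of the 20. What the reads on these genes stem from was not tested.

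Transcript length went with direction. With the 14773 nuclear protein-coding genes in 5 equal bins by the authors' mean transcript length, the share higher in Cre WT was 46.3%, 37.4%, 31.9%, 26.6% and 18.1% from shortest to longest. The share lower was 14.65%, 20.1%, 25.1%, 30.2% and 42.0%. The median length was 2091 bases for genes called higher, 3090 for those called lower and 2543 for those not called. The order of the bins by their median log2 fold change was the same within each index set, from 1.31 to -0.78 in set 1 and from 0.33 to -0.33 in set 2. The part of length in the counts of the gene lists was not tested.

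**Figure D4:**
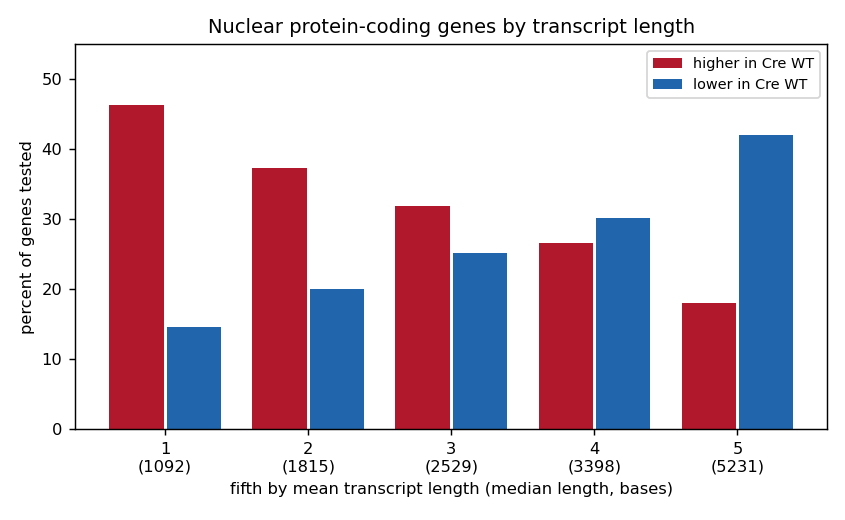
Percent of nuclear protein-coding genes tested that were called higher (red) or lower (blue) in Cre WT, in 5 equal bins by transcript length with the median length in bases under each. The share called higher falls from 46.3% to 18.1% and the share called lower climbs from 14.65% to 42.0%.

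The 2 index sets gave the same direction for nearly every call, at different sizes. Of the 10229 calls, 9322 could be tested within set 1 and 9286 (99.6%) had the same sign there, and of 9392 tested in set 2, 9316 (99.2%) did. No gene was called in opposite directions by the full comparison and by either set. The calls were made with the same 9 libraries, which favours the same sign in each set, so these counts are no separate result. The difference in the Cre effect between the sets was called for 137 of 16526 genes (0.829%), 93 with a higher and 44 with a lower value in set 2. Leaving out any 1 of the 9 libraries moved this count by more than 1.5 times, to 0 without Cre WT 1 (2875 genes at an unadjusted p under 0.05), to 1874 without NoCre WT 3 and to between 8 and 36 without each of the others. DESeq2 called 1163 and limma voom 218. Among those named by rule were Sparc, Sdc4, Aspa, Car2, Rgs5, Gatm and Ermn, all known mainly from glia or vessels. Aspa, an aspartate-releasing enzyme of oligodendrocytes, had a log2 fold change of -4.62 in set 1 and -1.35 in set 2 (difference 3.30, adjusted p = 0.00714), and Sparc, a matrix protein of vessels and astrocytes, -3.66 and -0.40 (adjusted p = 0.00483). The astrocyte list had a median of -3.12 in set 1 and -0.98 in set 2, and the oligodendrocyte list -2.98 and -1.22. The endothelial and mural list stood at -3.30 and -1.56, precursors at -2.86 and -1.01 and ependymal genes at -3.03 and -1.10. Schwann cell and nerve root genes changed sign, from -2.39 to 0.22, as did meningeal genes. Microglia, long non-coding RNAs and mitochondrially encoded genes did not follow this, with -3.24 and -3.20, -3.24 and -3.40, and -3.77 and -4.12. Rises were also smaller in set 2 for several lists, such as the proteasome at 2.22 and 1.09, but the alpha and fast motor neuron list stood at 3.38 and 3.05. Of the 4 given markers, none passed the test of the difference (adjusted p from 0.212 to 0.438).

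**Figure D5:**
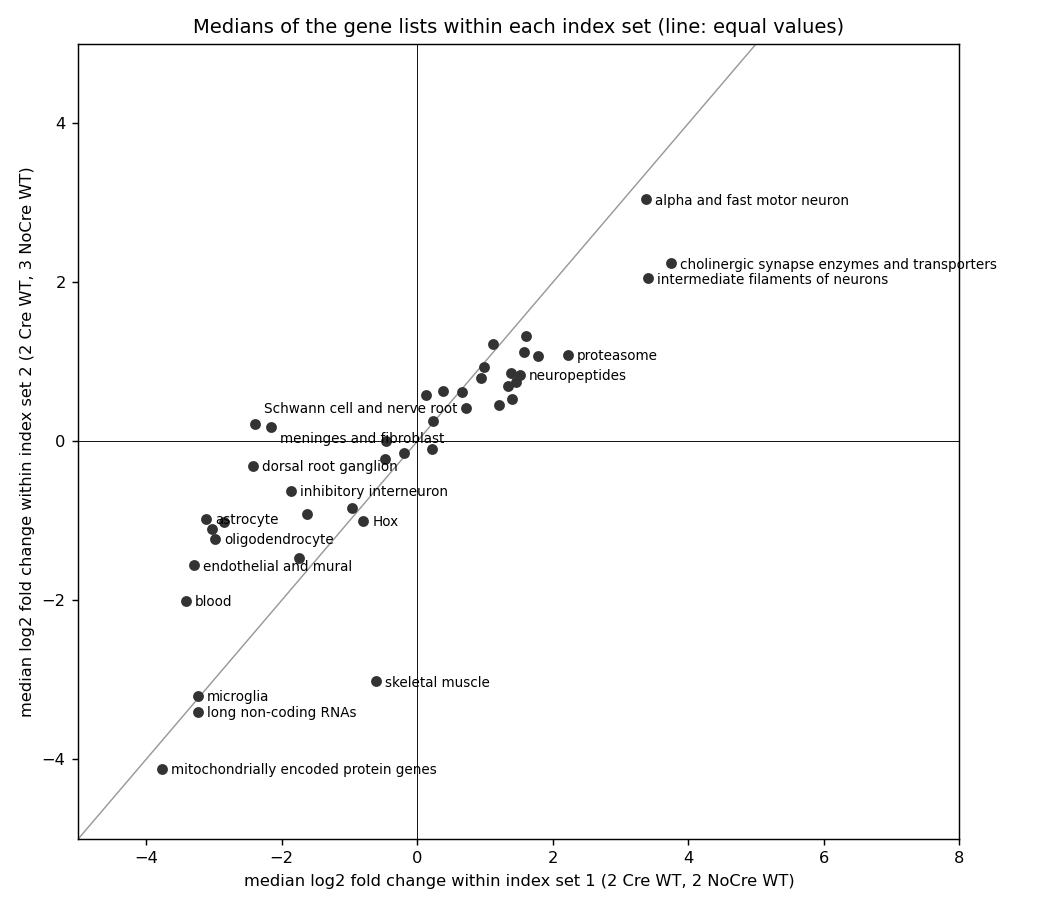
Median log2 fold change of each of 43 gene lists within index set 1 (horizontal) and within index set 2 (vertical), with the line of equal values. Glial and vascular lists lie above the line, astrocytes at -3.12 and -0.98, while microglia at -3.24 and -3.20 and alpha and fast motor neurons at 3.38 and 3.05 lie near it.

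The same contrast in mice with 1 mutant Gars copy (Rpl+/-;Chat+/-;P278KY+/- against Rpl+/-;Chat+/+;P278KY+/-, 3 Cre P278KY and 6 NoCre P278KY libraries) shares no library with the one above. There 4840 genes (28.2%) were higher and 5340 (31.2%) lower. Of the WT rises 3968 recurred, which is 81.4% of them and 82.0% of the rises in P278KY mice. Of the WT falls 4131 recurred, which is 77.2% and 77.4%. In opposite directions 36 genes were called. Slc10a4 had a log2 fold change of 5.73 there, Uts2 of 6.74, Vdr of 4.99, Isl1 of 4.93 and Cx3cr1 of -2.996. The astrocyte, oligodendrocyte and meningeal lists had medians of -3.09, -3.13 and -3.35, which is near their values in index set 1 of WT for the first 2 lists, and all 3 Cre P278KY libraries belong to that set. By Xist and Y-linked counts 1 of those 3 mice was male and 2 were female. Their 6 controls came from both sets, 3 from each, and the genotype differs too. The part of index set, sex or genotype in these medians was not tested. The 2 exceptions parted here: S100b was higher (log2 fold change 0.65, adjusted p = 0.0126), and Itm2a was lower, at -1.71 (adjusted p = 2.09e-05), one of the 36.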

How the data were processed

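Ribosome-associated RNA from the spinal cords of 9 WT mice was compared, with 9 P278KY mice in the same fit. For each library the authors deposited a gene table whose columns, per the file headers, hold RSEM's expected counts, TPM values and lengths. The submitters' processing notes list the tools RSEM (1.2.12) and Bowtie2 (2.2.0) without their roles, and neither genome build nor annotation is given in the sources used here. The deposited expected counts were rounded, and the deposited TPM values served only to compare levels between genes. Each table lists 38924 genes, of which 37607 were matched to GENCODE M21 (GRCm38) for position and biotype. RNA that sticks to antibody or beads enters every library, so a fold change over controls is a ratio of shares of counts.

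Low genes were removed with filterByExpr, libraries were scaled by TMM, and 4 group means were fitted over 18 libraries with edgeR (4.0.16, under R 4.3.3). Its robust quasi-likelihood test was two-sided, with Benjamini-Hochberg adjustment over all genes and a threshold of 0.05. Log-scaled CPM, used for the correlations, had a prior count of 2, and fitted fold changes kept the default prior count of edgeR. The difference between index sets was tested in the 9 WT libraries alone. P-values measure the spread between these mice. In simulated data at this depth and spread, 18% of 2-fold and 63% of 4-fold changes were recovered for the WT comparison among 16902 genes (2 false of 83 calls), and 0% and 5% for the difference between index sets among 15989 genes. The simulation changed only a small share of the genes, whereas 59.7% were called in the WT comparison. The adjusted p threshold is stricter when few genes change, so these figures do not give the recovery in the WT comparison itself. Alternatives were other scalings, filters and tools (DESeq2 1.42.0, limma 3.58.1), left-out libraries, index sets and a block. The members and the 43 lists were chosen with earlier results of these data known. Genes were named by rule: the 20 largest rises and falls at 20 CPM or more without overlap between groups and called with index set as a covariate, up to 4 of each list by adjusted p with called members that moved against the rest, the 20 highest TPM, the 10 smallest adjusted p between index sets, the 5 largest long non-coding rises and falls, and the markers with Rpl22 and Gars. Other genes are marked where named. The rule names 315 genes. Some are not reported here, and others were left out after their values were seen, among them genes whose calls rest on a single library. Promoters are from RefSeq.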

Additional observations from a re-analysis of the deposited data

Results flagged for a closer look

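Among the 166 genes given with values, each group of 4 or 5 libraries was examined for 1 library standing far from the others, which happened in 19 of 332 groups. Chance alone gives about 1 in 20. NoCre WT 4, the control with the smallest share of protein-coding reads, was the library in 8 of them: it was high for Zfp488 (1020.0 CPM), Olfr613 (355.8), Vmn1r58 (191.3), Jun (28.9) and Chrna1 (6.58), and low for Hoxb9 (9.56), H2-T22 (2.19) and Htr1d (0.598). NoCre WT 5 was high for Kcna6 (83.3 CPM) and low for Stmn2 (94.4) and Hk2 (0.913), and NoCre WT 3 was high for Kcnj10 (1357 CPM) and Nos1 (81.2). Among Cre WT libraries, number 1 was low for Kif1c (4.67 CPM) and Lmx1b (0.934), number 2 for Gpr149 (3.46) and Kif5b (224.8), number 3 for Hoxb4 (3.38) and number 4 for Gfra1 (86.6).

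For 7 of the genes given with values, the Cre effect differed between the index sets by the test of the difference (edgeR, adjusted over 16526 genes). Set 2 minus set 1, on the log2 scale, it was 3.30 for Aspa (adjusted p = 0.00714), 3.30 for Sparc (0.00483), 3.16 for Kcnj16 (0.0402), 2.85 for Ebf2 (0.035) and 2.45 for Slc1a2 (0.0276), each with a fold change nearer 0 in set 2. It was -2.17 for Hspb1 (0.0461) and -1.65 for Eef1a2 (0.045), whose rises were smaller there. All 7 had the same sign in both sets.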

How the results depend on the processing

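Of 10229 genes called between Cre WT and NoCre WT, other scalings, filters, tools and designs gave 8097 to 12050 and leaving out 1 library gave 9050 to 10103, except that index set 2 alone (2 against 3 libraries) gave 4383. The share of calls that were rises was 47.7% with TMM, 42.5% with RLE, 59.1% with totals alone, 44.1% without mitochondrial and ribosomal RNA genes, 40.7% with scaling from protein-coding genes, 41.4% with no filter, 41.9% with DESeq2 and 48.6% with voom. The P278KY count of 10180 moved between 7857 and 10892, and between 8263 and 10051 with 1 library left out. The 137 genes whose Cre effect differed between index sets were unstable: 0 with totals alone (2312 at an unadjusted p under 0.05), 1070 with no filter, 1163 with DESeq2, 218 with voom and 0 to 1874 with 1 library left out, 0 without Cre WT 1 (2875 at an unadjusted p under 0.05) and 1874 without NoCre WT 3. The cause was not tested.

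Of 297 genes that the naming rule gives and that were called, 198 kept call and sign under each of the 23 alternatives, and 28 lost it when 1 library was left out. Among genes given with values, signs turned only for genes not called: Avil ranged from -2.21 (log2, without Cre WT 4) to 0.30 (without NoCre WT 4) with 1 library left out and was at 0.20 without NoCre WT 4 and 5, Dcn ranged from -0.12 (without Cre WT 4) to 1.29 (without Cre WT 1) and was at -0.69 in index set 1 and -0.19 with the block, Lars2 at -1.25 in index set 2 and Rpl22 at -0.10 there.

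With the mouse number as a replicate block the counts were 9707 in WT and 8581 in P278KY mice. Deviations of same-numbered WT libraries correlated at -0.019 for Cre WT 1 with NoCre WT 1. For Cre WT 2 they correlated at 0.146 with NoCre WT 4 and at 0.176 with NoCre WT 5. Pairs with different numbers ranged from -0.219 to 0.206, and those of Cre WT 2 stood at -0.067, -0.206 and -0.148. NoCre WT 4 and 5 thus share a number, and the correlation between them was not examined. Without both of them 9927 genes were called in WT. What the number marks is not given in the sources used here. Depth limits small changes in genes of low count, most of all between index sets.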

Other observations

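The largest fitted fold change of all genes tested was that of Gm6768, a processed pseudogene at chr12:119260978-119262855, singled out after the values were seen. It had 44.4, 21.3, 49.6 and 32.3 CPM in Cre WT 1 to 4, 3349 counts in all, and 0 counts in the 5 NoCre WT libraries. Against a floor of 3 counts over the control group it was at least 569.5-fold higher, counting error only. Its annotated transcript of 1878 bases shares 1786 of its 1848 words of 31 bases (96.6%) with Ncoa4, a cargo receptor for ferritin turnover, so the authors' counting may divide reads between the pair. Ncoa4 lies at chr14:32159865-32179855, close to Chat at chr14:32408203-32465989, where only the Cre mice carry Cre. Whether sequence linked to the Cre allele plays a part in the counts of Gm6768 was not tested, so its fold change is not read as cholinergic enrichment. Ncoa4 itself was at 39.5 ± 8.85 CPM in Cre WT and 42.8 ± 12.1 in NoCre WT and was not called (log2 fold change -0.12, adjusted p = 0.643). In P278KY mice the fitted log2 fold change of Gm6768 was 11.48. A fitted value against a group at 0 depends on the default prior count of edgeR.

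Ucn, for the stress peptide urocortin, was also chosen after its values were seen. It had 84 counts in Cre WT, at 1.43, 2.39, 0.610 and 0.516 CPM in the 4 libraries, and 0 in NoCre WT, at least 14.3-fold higher by the same floor.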
